A study of Mus musculus with 8 samples.

Results

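Antigen presentation by major histocompatibility complex (MHC) class I was described through 10 genes, chosen by name: H2-K1, H2-D1, B2m, Tap1, Tap2, Tapbp, Nlrc5, Psmb8, Psmb9 and Psmb10. All 10 were among the 54532 genes of the count table, and all 10 passed the filter on low counts that left 17138 genes for testing. RNA was sequenced from whole lungs of CC-LR mice, which carry a Cre-activated K-ras G12D allele together with Cre recombinase driven by the club cell secretory protein (CCSP) locus, so that mutant K-ras is switched on in lung epithelium and adenomas form. The 4 Control mice and the 4 mice given TTI-101, a small-molecule inhibitor of STAT3 signaling, all carried both alleles and were 14 weeks old, and the TTI-101-treated mice had received the drug for 4 weeks. Both sexes were used in the study, and the sex of each mouse, the route and dose of TTI-101 and what the Control mice were given are not stated for these libraries in the sources used here. Each library was taken as 1 mouse. The labels number the libraries within a group and do not say that they came from separate animals, so p-values measure the spread between these libraries.

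Nearly every nucleated cell displays peptides of its own proteins on class I molecules, where CD8 T cells read them. A class I molecule is a heavy chain, encoded in these mice by H2-K1 and H2-D1, joined to the light chain β2-microglobulin (B2m). Peptides are cut by proteasomes, carried into the endoplasmic reticulum by the TAP1-TAP2 transporter and loaded with the help of tapasin (Tapbp). Interferon-γ raises most of these genes, and replaces the catalytic subunits of the constitutive proteasome with those of the immunoproteasome, encoded by Psmb8, Psmb9 and Psmb10. NLRC5, a transactivator, acts together with RFX and NF-Y factors at a conserved promoter module made of an S, an X and a Y box.

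The promoter sequences are shown because several of the 10 genes are known to be controlled together, and because H2-K1 and H2-D1 had close to the same levels in every library. The RefSeq table of promoters (GRCm38.p6) held a window for 8 of the 10 genes, without Tap2 and Nlrc5, and only the 250 bases before the start site were read. The H2-K1 window lies on chr17:34000348-34000597, minus strand, and overlaps no annotated exon. It reads, with capitals marking a κB site, an interferon regulatory factor core, the core of the X2 box and an inverted CCAAT box in that order:
H2-K1: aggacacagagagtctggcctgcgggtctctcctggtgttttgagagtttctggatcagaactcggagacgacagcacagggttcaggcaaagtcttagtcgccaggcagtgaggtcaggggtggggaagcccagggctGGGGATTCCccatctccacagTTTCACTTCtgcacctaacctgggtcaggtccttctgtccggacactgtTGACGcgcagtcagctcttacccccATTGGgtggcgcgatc
The B2m window lies on chr2:122147437-122147686, plus strand, and its capitals mark the X2 core and the inverted CCAAT box:
B2m: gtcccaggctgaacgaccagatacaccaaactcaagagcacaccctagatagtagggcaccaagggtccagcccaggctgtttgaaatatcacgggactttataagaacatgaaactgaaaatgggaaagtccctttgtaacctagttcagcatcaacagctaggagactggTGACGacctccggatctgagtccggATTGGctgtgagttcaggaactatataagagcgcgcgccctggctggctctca
The H2-K1 window was 87.9% identical to that of H2-D1, with 167 identical bases among 190 aligned. In both, the κB site and the interferon regulatory factor core lay in a stretch of 30 bases, at chr17:34000429-34000458 on the minus strand for H2-K1 and at chr17:35262923-35262952 on the plus strand for H2-D1, with capitals for the 2 elements:
H2-K1: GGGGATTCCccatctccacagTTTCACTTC
H2-D1: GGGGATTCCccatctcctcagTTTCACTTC
Nearer to the start site, H2-K1 (chr17:34000359-34000388, minus strand), H2-D1 (chr17:35262993-35263022, plus strand) and B2m (chr2:122147609-122147638, plus strand) each held the X2 core followed by an inverted CCAAT box at the same distance of 20 bases:
H2-K1: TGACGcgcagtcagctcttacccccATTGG
H2-D1: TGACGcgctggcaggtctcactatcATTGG
B2m: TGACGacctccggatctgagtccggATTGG
Between the capitals the B2m stretch differs from both heavy chain stretches, whereas the capitals and their spacing are the same.

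Motifs were searched by letters on both strands in all 32851 windows of the same length. The κB letters GGGNNTTCC and the interferon regulatory factor core TTTCNNTTC were found in H2-K1 and H2-D1 among the 8 windows, and in 4.98% and 6.31% of all windows. Only these exact letters were searched, so elements with other letters or spacing are missed. The B2m window holds GAAACTGAAA and GGGAAAGTCCC, which resemble the 2 motifs without matching their letters. The X2 core TGACG, found in 17.8% of all windows, was in 5 of the 8 (H2-K1, H2-D1, B2m, Tap1 and Psmb9). The letters CCAAT, found in 33.8% of all windows, were in 6 of the 8, the same 5 genes and Tapbp. The arrangement of TGACG, 20 bases of any kind and ATTGG, which overlaps the previous pair of motifs by construction and was looked for after the windows had been seen, was in H2-K1, H2-D1 and B2m and in 0.0913% of all windows. The letters TTCNNNGAA, known as a gamma-activated site, were found in Psmb8 alone among the 8 and in 7.02% of all windows. Tap1 and Psmb9 are transcribed away from each other from start sites 226 bases apart, and their windows share 225 bases. Their TGACG matches are the same bases of the shared stretch, and so are their CCAAT matches. Each of these sites is therefore counted once for Tap1 and again for Psmb9 in the numbers above. A match is a description of the letters and does not show that a factor binds there. Lack of a match does not show that an element is absent.

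Per gene length, B2m was the most abundant of the 10 transcripts. Its mean over the 8 libraries was 1082 RPKM (counts scaled for depth and divided by gene length in kilobases), ranging from 477 to 1593. H2-D1 at 553 RPKM and H2-K1 at 525 RPKM followed, and H2-D1 was above H2-K1 in 6 of 8 libraries, so that the order of the heavy chains was not the same in all libraries. Tapbp was next at 97.6 RPKM and Psmb10 at 44.0 RPKM. Tap2 at 22.5 RPKM and Psmb8 at 21.4 RPKM were also not separated, Tap2 being the higher in 5 of 8 libraries. Tap1 had 18.6 RPKM, Psmb9 13.6 RPKM and Nlrc5, a regulator and not a part of the presenting machinery, 3.44 RPKM. All other neighbours in this order kept it in 8 of 8 libraries. Together the 10 genes took 0.494% ± 0.0727 of all counts after TTI-101 treatment and 0.397% ± 0.0948 in Control lungs (SD over 4 libraries each).

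H2-K1, one of the classical heavy chains, had 1444, 1192, 1437 and 984 CPM (the usual per-depth unit, after TMM scaling, not divided by gene length) in Control libraries 1 to 4 and 1361, 1736, 1722 and 1084 CPM in TTI-101 libraries 1 to 4. TTI-101 2 and 3 were above every Control library and the remaining pair was within the Control range. The log2 fold change was 0.22 ± 0.21 (SE; edgeR adjusted p = 0.754), and its 95% interval ran from 0.842-fold to 1.62-fold. H2-D1, the other classical heavy chain, had 1434, 1236, 1523 and 964 CPM in Control and 1420, 1619, 1946 and 1275 CPM in TTI-101-treated libraries. The groups overlapped in the same way, and the log2 fold change was 0.28 ± 0.21 (SE; edgeR adjusted p = 0.700).

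B2m, the light chain shared by all class I molecules, had 1178, 806, 764 and 410 CPM in Control and 1370, 737, 1212 and 968 CPM in TTI-101-treated libraries. It was the most variable of the 10 genes, with a 3.34-fold range over the libraries, and Control 4 was far below the rest while TTI-101 2 was within the Control range. The log2 fold change was 0.44 ± 0.31 (SE; edgeR adjusted p = 0.684), with a 95% interval from 0.847-fold to 2.18-fold. Without Control 4 it was 0.24.

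Tap1, the first half-transporter, had 110, 74.1, 109 and 56.8 CPM in Control and 118, 109, 146 and 92.0 CPM in TTI-101-treated libraries. All 4 treated libraries were above the Control mean, and 2 exceeded the whole Control group. The log2 fold change was 0.41 ± 0.23 (SE; edgeR adjusted p = 0.657), and 0.26 without Control 4. Tap2, its partner, had 77.1, 67.2, 88.2 and 68.2 CPM in Control and 88.5, 99.5, 119 and 74.6 CPM in TTI-101-treated libraries. Treated libraries 1 to 3 exceeded the highest Control library, the lowest of them by a small margin (88.5 against 88.2 CPM), and TTI-101 4 did not. Tap2 had the lowest unadjusted p of the 10 genes (0.0649 by edgeR) at a log2 fold change of 0.34 ± 0.17 (SE; edgeR adjusted p = 0.657).

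Tapbp, which encodes the chaperone that bridges the transporter and the heavy chain, was the steadiest of the 10 genes. It had 301, 314, 370 and 268 CPM in Control and 306, 335, 392 and 288 CPM in TTI-101-treated libraries, a 1.46-fold range over all 8. The groups overlapped almost wholly, and the log2 fold change was 0.08 ± 0.16 (SE; edgeR adjusted p = 0.898). Its 95% interval, 0.824-fold to 1.35-fold, is the one of the 10 that reaches least far upward. Without TTI-101 3 its log2 fold change was -0.02.

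The immunoproteasome subunits are the interferon-inducible catalytic subunits that take the place of Psmb5 (for Psmb8), Psmb6 (for Psmb9) and Psmb7 (for Psmb10). Psmb8 had 65.3, 44.3, 64.8 and 34.9 CPM in Control and 64.6, 64.9, 83.3 and 47.1 CPM in TTI-101-treated libraries, so that 1 treated library was above every Control library. Psmb9 had 51.8, 36.4, 51.9 and 29.7 CPM in Control and 60.7, 49.2, 78.1 and 40.6 CPM in TTI-101-treated libraries, 2 of which were above every Control library. Psmb10 had 62.3, 67.1, 90.6 and 55.7 CPM in Control and 82.6, 79.1, 103 and 60.6 CPM in TTI-101-treated libraries, with 1 above every Control library. In each of the subunits Control 4 was the lowest library and TTI-101 3 the highest. The log2 fold changes were 0.31 ± 0.23 for Psmb8, 0.43 ± 0.24 for Psmb9 and 0.24 ± 0.20 for Psmb10 (SE; edgeR adjusted p = 0.702, 0.657 and 0.721).

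Nlrc5 had 30.6, 20.3, 33.7 and 17.01 CPM in Control and 38.2, 21.7, 31.2 and 40.9 CPM in TTI-101-treated libraries. TTI-101 4, the lowest treated library for 8 of the 10 genes, was the highest of all libraries for Nlrc5, and TTI-101 2 was near the lower Control libraries. The log2 fold change was 0.38 ± 0.26 (SE; edgeR adjusted p = 0.683).

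**Figure D1:**
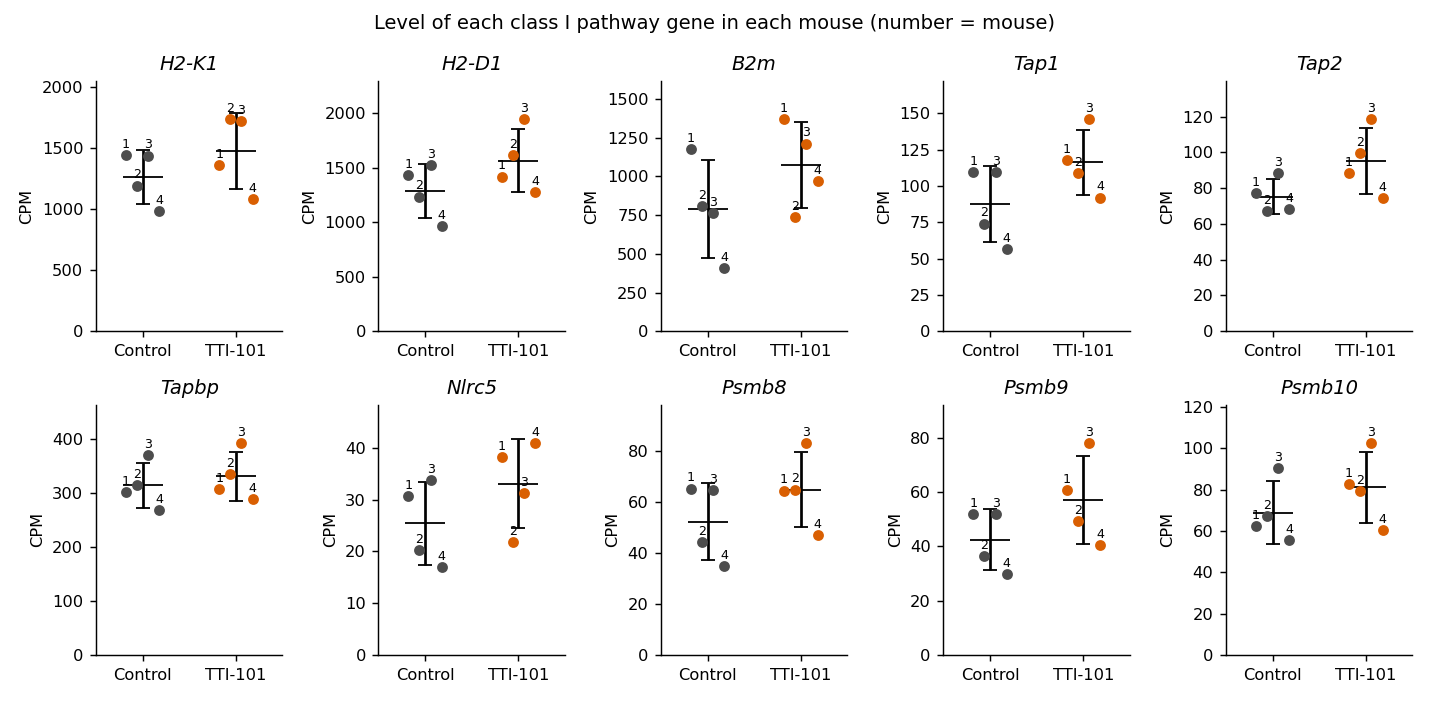
Level of each of the 10 genes (vertical axis, CPM, starting at 0) in 4 Control (grey) and 4 TTI-101-treated (orange) libraries, each point numbered by its mouse, with the mean and SD of each group in black. In every panel the groups overlap, and Control 4 is the lowest library for 9 of 10 genes.

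None of the 10 genes had an adjusted p under 0.05 by edgeR, DESeq2 or limma-voom, and none had an unadjusted p under 0.05 by any of these tools. For edgeR, 0% of the 17138 genes tested had an adjusted p under 0.05, and 6.61% had an unadjusted p under 0.05. Of all genes tested, 3.02% had such a p on the higher side after TTI-101 and 3.58% on the lower side. DESeq2 called 4 genes of all those it tested at an adjusted p under 0.05, and limma-voom 0. All 10 log2 fold changes were above 0, as were 50.6% of all genes, and the median of the 10 was 0.33 against 0.00 over all genes. For 0 of the 10 genes did the groups fail to overlap, compared with 1.53% of all genes on the higher side and 1.43% on the lower side. Two-sided exact permutation tests of log2 CPM over the 70 assignments of 8 mice, whose smallest possible p is 0.0286, gave p = 0.114 for Tap2 and p = 0.600 for Tapbp, with the other genes in between. The number with an unadjusted p under 0.05 was 1 (B2m) without Control 1, 1 (Tap2) without Control 3 and 2 (Tap2 and Psmb9) without TTI-101 4, all by edgeR, and 0 when any other library was left out. Over all genes, 2393 of 17406 tested had such a p without Control 1. The numbers were 824 of 17382 without Control 3 and 758 of 17483 without TTI-101 4. Lungs were sequenced whole, and fewer cells of a type cannot be told apart from less RNA per cell.

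**Figure D2:**
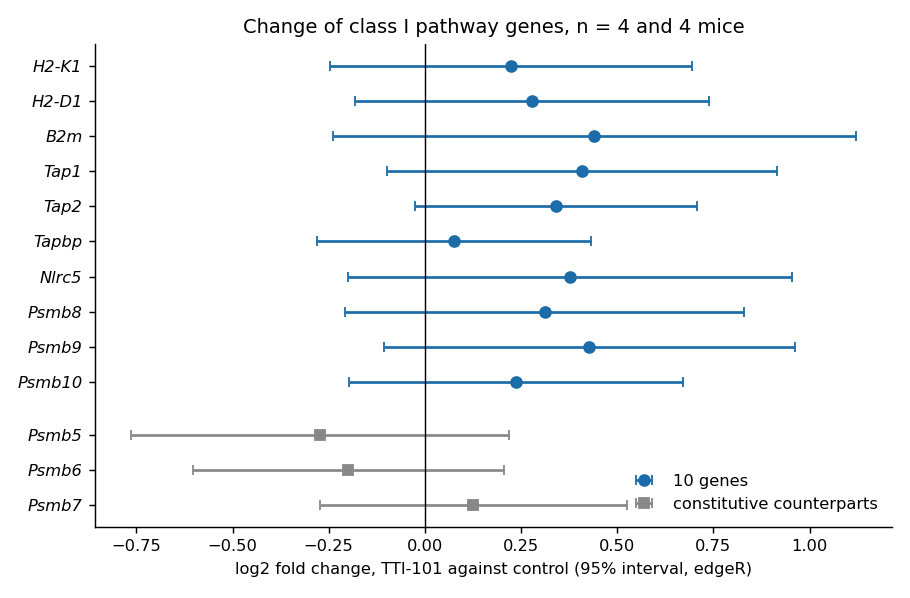
Log2 fold change of TTI-101-treated against Control lungs (horizontal axis) with its 95% interval from edgeR for the 10 genes (blue) and for the constitutive counterparts of the immunoproteasome subunits (grey). All 10 blue points lie above 0, from 0.08 for Tapbp to 0.44 for B2m, and every interval spans 0.

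The size of these differences depended on single libraries. Control 4 had the lowest level of 9 of the 10 genes, and TTI-101 3 had the highest level of 7. Control 4 also stood apart over all genes, with a score of 101 on the first principal component (45.2% of the variance) where the next highest library had 17.9, and with 5.56% of its counts from mitochondrial genes against 2.01% to 2.85% in the others. Without Control 4 all 10 log2 fold changes stayed above 0, from 0.02 for Tapbp to 0.31 for Tap2, and their median was 0.20. Without TTI-101 3 the median was 0.19. What part the state of the Control 4 tissue or library had in its low values was not tested.

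**Figure D3:**
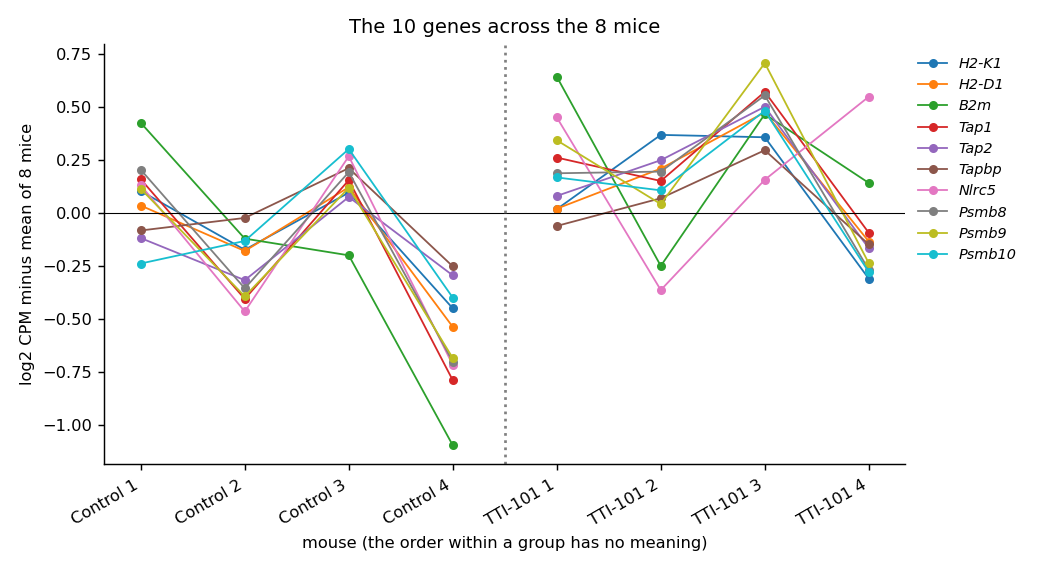
Log2 CPM of each of the 10 genes (coloured lines) relative to its own mean over the 8 libraries (vertical axis), for the 4 Control libraries on the left and the 4 TTI-101-treated libraries on the right. Most genes follow one another from mouse to mouse, with the lowest point in Control 4, whereas Nlrc5 in TTI-101 4 and B2m in TTI-101 2 depart from the others.

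Several of the genes kept a close ratio to each other in every library. Among the 45 pairs, the ratio of Tap1 to Psmb8 varied least, over a range of 0.26 on the log2 scale, and was followed by Tap1 to Psmb9 (0.28), Psmb8 to Psmb9 (0.31) and H2-K1 to H2-D1 (0.33). Next came H2-D1 to Psmb8 (0.35) and Tap2 to Psmb10 (0.37), the latter pair on different chromosomes. Tap1, Psmb8 and Psmb9 are neighbours on chromosome 17. Tap2 lies beside them, but its ratios to Tap1, Psmb8 and Psmb9 ranged over 0.77, 0.73 and 0.65. The widest range was that of H2-K1 to Nlrc5, at 1.59, so the transcript of the transactivator was not in a fixed proportion to that of the heavy chain. These ranges are descriptions over 8 libraries that share scaling within each pair. No ranges for pairs of other genes are given beside them, so they are not shown to be particular to these genes.

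Ratios within a library do not depend on scaling, and 7 were compared between groups. The log2 ratio of Psmb9 to its constitutive counterpart Psmb6 was -0.55, -1.34, -1.14 and -1.84 in Control and -0.24, -1.09, -0.24 and -0.77 in TTI-101-treated libraries. It was higher by 0.63 in TTI-101-treated lungs on average, with all 4 above the Control mean, and the groups overlapped (two-sided exact permutation p = 0.114). The log2 ratio of Psmb8 to Psmb5 was higher by 0.60 (exact permutation p = 0.171), and that of Psmb10 to Psmb7 by 0.12 (exact permutation p = 0.714). Without Control 4 these differences were 0.42, 0.35 and -0.02. The counterparts had log2 fold changes of -0.27 (Psmb5), -0.20 (Psmb6) and 0.13 (Psmb7), which ranged from -0.43 to -0.17, from -0.31 to -0.11 and from 0.03 to 0.24 with 1 library left out. The ends of these ranges came without TTI-101 2 and without Control 3 for Psmb5 and Psmb6, and without TTI-101 3 and without TTI-101 4 for Psmb7.

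The heavy chains were compared with their light chain in the same way. The log2 ratio of H2-K1 to B2m was 0.76 ± 0.42 in Control and 0.47 ± 0.55 in TTI-101-treated libraries (SD, n = 4 and 4; exact permutation p = 0.400), and that of H2-D1 to B2m differed by -0.22 (exact permutation p = 0.514). The ratio of the heavy chains to each other differed by -0.07 (exact permutation p = 0.400) and that of Tap1 to Tap2 by 0.11 (exact permutation p = 0.686). After Benjamini-Hochberg adjustment over the 7 ratios the exact permutation p-values lay between 0.600 and 0.714. Without Control 4 the ratio of Tap1 to Tap2 differed by -0.03.

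**Figure D4:**
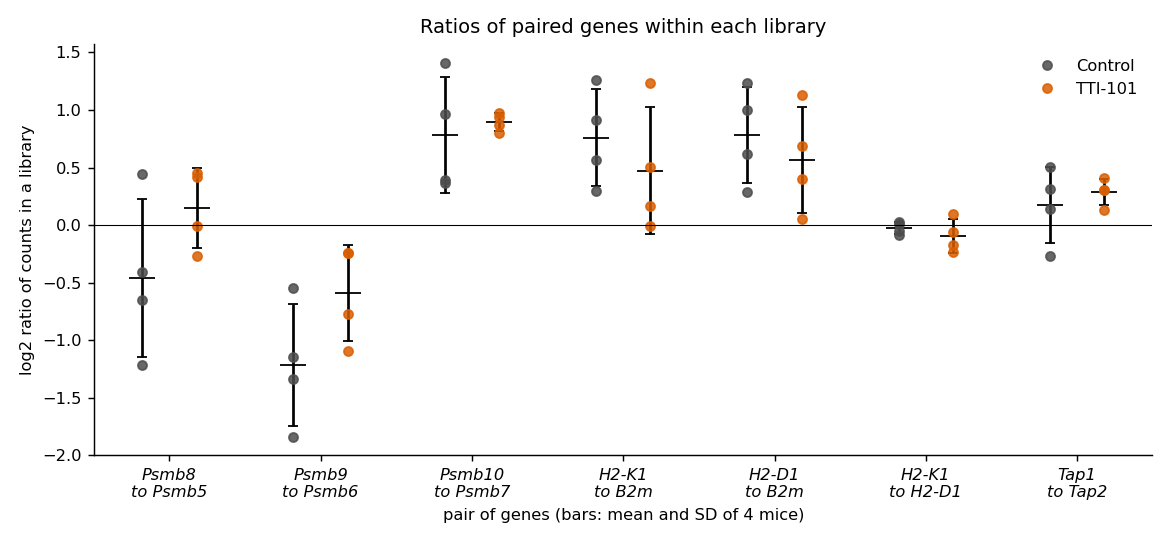
Log2 ratio of the counts of paired genes within each library (vertical axis) for Control (grey) and TTI-101-treated (orange) libraries, with the mean and SD of 4 libraries in black. Counts are not divided by gene length, so 0 does not mark equal levels. The groups overlap for all 7 pairs, and the ratios of Psmb8 to Psmb5 and Psmb9 to Psmb6 have the largest differences between means, 0.60 and 0.63.

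Beyond the classical heavy chains, 16 other class I genes could be tested, of 19 listed. Of these, 13 had a log2 fold change above 0 and 3 below, with a median of 0.44, and 0 had an adjusted p under 0.05. An unadjusted edgeR p under 0.05 was reached by 1 gene on the higher side and 1 on the lower. Over all genes tested the shares were 3.02% and 3.58%. Without Control 4 the split was 14 and 2 and the median 0.20. H2-T23, a nonclassical molecule that presents leader peptides to natural killer cells, had 234, 186, 213 and 149 CPM in Control and 288, 274, 344 and 194 CPM in TTI-101-treated libraries (log2 fold change 0.49, unadjusted edgeR p = 0.0362, exact permutation p = 0.0857). H2-Q2 was lower (log2 fold change -0.69, unadjusted edgeR p = 0.0367, exact permutation p = 0.0571), from 12.7 ± 5.48 to 7.89 ± 1.36 CPM (SD, n = 4 and 4), and Control 4 was its highest library at 20.9 CPM. Without Control 4 the unadjusted p was 0.0713 for H2-T23 and 0.136 for H2-Q2, whose log2 fold change was then -0.33. H2-Q5 was the gene of this list whose groups did not overlap, as in 1.53% of all genes tested on the higher side. It had 10.3 to 39.0 CPM in Control and 39.7 to 50.1 CPM in TTI-101-treated libraries (23.97 to 39.0 CPM in Control without Control 4). Its unadjusted edgeR p was 0.0532, and it was named after its values had been seen. Class I genes are close copies of each other, and 14.3% of 50-base windows of the H2-D1 transcript and 8.79% of those of H2-K1 recur in other genes, so reads could be assigned to the wrong copy. Windows of 150 bases recurred for 1.79% of H2-D1 and 0% of H2-K1.

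The machinery around the 10 genes did not share their direction throughout. Of 8 genes for the loading complex and quality control, 3 were above 0 and 5 below (median -0.09). The named members of that list were Tapbpl, which encodes a tapasin-related peptide editor (log2 fold change 0.34), and Hspa5, which encodes the chaperone BiP (-0.28). Of 7 genes that encode peptide-trimming enzymes, 2 were above 0 and 5 below (median -0.02), with Erap1, the aminopeptidase of the endoplasmic reticulum, at 0.16 and Lap3, a cytosolic leucine aminopeptidase, at -0.37. Without Control 4, Hspa5 was at -0.11 and Lap3 at -0.16, and Erap1 ranged from 0.02 (without Control 3) to 0.36 (without Control 1). For these 2 lists the split moved to 4 and 4 and to 4 and 3 without Control 4, and the medians to -0.04 and 0.06. None of these genes had an unadjusted p under 0.05 by edgeR with all libraries. Of the named ones, Tapbpl did without Control 1 (log2 fold change 0.51) or TTI-101 2 (0.45), and Lap3 without Control 2 (-0.47). Over all genes, such a p was reached by 2393, 2498 and 1143 in those fits, in the same order.

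Genes for the 20S core of the proteasome lay mostly on the other side of 0. Of 14, 12 were below 0 and 2 above (median -0.19), with 12 and 2 also without Control 4, where the median was -0.13. Over all genes, 8469 of 17138 were below 0. Only catalytic subunits are exchanged in the immunoproteasome, so this list also holds subunits common to both forms. Psmb7, a constitutive counterpart, was the highest of the 14 at 0.13. On the lower side, 1 of the 14 had an unadjusted edgeR p under 0.05 (3.58% of all genes). Psma4, an α-ring subunit, had 74.8, 88.1, 92.8 and 90.1 CPM in Control and 73.6, 75.9, 66.5 and 67.9 CPM in TTI-101-treated libraries (log2 fold change -0.28, unadjusted edgeR p = 0.0421, exact permutation p = 0.0571). Control 1 lay within the treated range, and without Control 4 the unadjusted p was 0.0858. All 7 genes for proteasome activators and assembly were below 0 (median -0.14), among them Psme4, which encodes the activator PA200 (-0.30), and Pomp, an assembly factor (-0.28). Without Control 4 this was 6 of 7, the median was -0.09, and Psme4 was at -0.11. None of the genes of either list had an adjusted p under 0.05 by edgeR.

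Of the factors of the class I promoter and the interferon-γ pathway, 14 were tested, with 11 above 0 and 3 below (median 0.14) and 0 with an unadjusted p under 0.05. Ifngr1, a chain of the interferon-γ receptor, had a log2 fold change of 0.37 (edgeR adjusted p = 0.657), or 0.25 without Control 4, and Ifng itself had too few counts to be tested. Stat3, the target of the drug, is controlled through its protein, and its transcript was at 257 CPM in Control (SD 30.03) and at 244 CPM after TTI-101 (SD 26.8), a log2 fold change of -0.08.

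Genes for the receptors that read class I molecules lay mostly above 0, 8 of 9 of them (median 0.51; 0.32 without Control 4) and 0 with an unadjusted p under 0.05. Cd8a, a chain of the T cell co-receptor, had 13.8, 5.50, 3.72 and 1.92 CPM in Control and 16.3, 5.58, 15.8 and 12.0 CPM in TTI-101-treated libraries. Control 1 was within the treated range, and TTI-101 2 and TTI-101 4 were within the Control range (log2 fold change 0.98, edgeR adjusted p = 0.657). The other chain, Cd8b1, had a log2 fold change of 1.36 (edgeR adjusted p = 0.657). Without Control 1 the log2 fold changes were 1.74 for Cd8a and 2.23 for Cd8b1 (edgeR adjusted p = 0.284 and 0.296), and without Control 4 they were 0.69 and 1.01.

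Class II presentation genes, which serve CD4 T cells, were listed beside them. Of 9, 3 were above 0 and 6 below (median -0.07). The list did not hold every class II gene, and H2-DMb2, named after its values had been seen, was at 28.5 CPM in Control and 43.1 CPM after TTI-101 on average (log2 fold change 0.60, edgeR adjusted p = 0.657). H2-Ob, a B cell-associated modulator of class II peptide loading, had 47.2, 23.7, 25.1 and 19.9 CPM in Control and 73.0, 34.8, 71.0 and 57.4 CPM in TTI-101-treated libraries (log2 fold change 1.02, unadjusted edgeR p = 0.00674, adjusted p = 0.657, exact permutation p = 0.0571). Only TTI-101 2 fell within the Control range, and without Control 4 the unadjusted p was 0.0163.

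**Figure D5:**
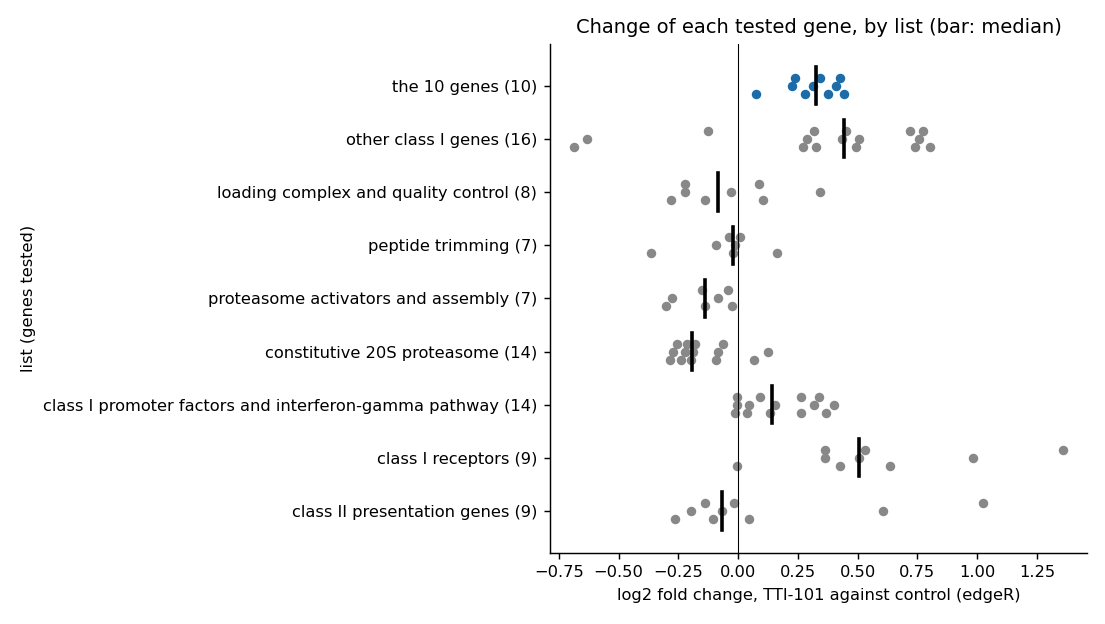
Log2 fold change of each tested gene (horizontal axis, points) by list (vertical axis, number of genes tested in parentheses), with the median of each list as a black bar. The 10 genes and the other class I genes have medians of 0.33 and 0.44 (0.20 for each without Control 4), while the loading complex, trimming, activator and constitutive proteasome lists have medians between -0.19 and -0.02.

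Of the 10 genes, 6 lie in the MHC region of chromosome 17 between H2-K2 and H2-M2 (chr17:33974831-37483552, mm10). The table held 319 genes there, of which 134 were tested. Of the 128 that are not among the 10, 78 were above 0 and 50 below (median 0.09), 10 had an unadjusted p under 0.05 on the higher side and 4 on the lower. Over all genes tested 50.6% were above 0, and 3.02% and 3.58% had such a p on the higher and the lower side. The 6 from the region had a median of 0.33, and those elsewhere were B2m on chromosome 2, Nlrc5 and Psmb10 on chromosome 8, and Tapbp on chromosome 17 just outside these limits.

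The genes most like the 10 were those with the highest Pearson correlation, over the 8 libraries, with the mean standardized log2 CPM of the 10 genes. They were Tk2 (r = 0.978), Serf2 (0.970), 2310033P09Rik (0.963), Yars (0.960) and H2-Q4 (0.960), of which H2-Q4 is a class I gene and Tk2 encodes the mitochondrial thymidine kinase. Without Control 4 the values were 0.959, 0.950, 0.971, 0.921 and 0.915. They describe 8 libraries that include the outlying Control 4 and were picked as the highest of all genes tested.

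Markers of several cell types lay on the same side of 0 as the 10 genes, with summed levels that overlapped between the groups. The 5 markers of all leukocytes were above 0 in 5 of 5 (median log2 fold change 0.41), with a summed level of 345 to 783 CPM in Control and 519 to 924 CPM in TTI-101-treated libraries. The 5 B cell markers were above 0 in 5 of 5 (median 1.28). They summed to 82.2 to 220 CPM in Control and 202 to 426 CPM in TTI-101-treated libraries. Each had an unadjusted edgeR p under 0.05 (3.02% of all genes tested on the higher side), and 0 had an adjusted p under 0.05. Markers of T cells (6 of 6 above 0, median 0.69), natural killer cells (4 of 4, 0.93) and endothelial cells (4 of 4, 0.57) lay on the same side. An unadjusted edgeR p under 0.05 was reached by 1 T cell, 1 natural killer cell, 0 endothelial and 0 leukocyte markers. The summed level was lowest in Control 4 for each of these lists. Without it, the lowest Control sums were 492 CPM for leukocytes, 134 CPM for B cells and 1757 CPM for endothelial cells. They were 39.4 CPM for T cells and 32.9 CPM for natural killer cells. The lung was recognised by its epithelial markers, whose directions differed. Alveolar type 1 markers lay on the same side as the 10 genes in 3 of 4 (median 0.40; 1801 to 2686 CPM summed in Control and 2479 to 3574 CPM in TTI-101-treated libraries), and Control 4 again had the lowest sum. Alveolar type 2 markers were above 0 in 0 of 5 (median -0.40; 38565 to 67347 CPM summed in Control and 28761 to 54805 CPM in TTI-101-treated libraries), club cell markers in 0 of 3 (median -0.68) and ciliated cell markers in 0 of 4 (median -0.67). Red cell markers (5 of 5 above 0, median 2.50) and adipocyte markers (3 of 3, median 2.00) had the largest median differences of the marker lists. Neutrophil (4 of 4, 0.84), fibroblast (4 of 4, 0.29) and heart muscle markers (4 of 4, 0.81) were above 0. Alveolar macrophage markers were above 0 in 4 of 5 (median 0.23) and dendritic cell markers in 3 of 5 (0.11). On the lower side, 1 dendritic cell, 1 club cell and 2 ciliated cell markers had an unadjusted edgeR p under 0.05 (3.58% of all genes tested). On the higher side, 4 red cell and 3 adipocyte markers did. No marker of the leukocyte, B, T, natural killer, endothelial, epithelial, red cell and adipocyte lists was at 0 counts in any library. What part any of the marked cells had in the values of the 10 genes was not tested.

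Total counts ranged from 16075855 to 26873509 per library. The member with the fewest counts, Nlrc5, had 266 to 1015 per library, so counting error (a coefficient of variation of at most 6.13% for any of the 10 genes) was small beside the spread between libraries, which reached 39.8% for B2m in Control. Tap1 and Psmb9 overlap over 212 bases on opposite strands, and Tapbp overlaps Zbtb22 over 3421 bases on the same strand. How reads in such overlaps were counted is not given in the sources used here.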

How the data were processed

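Poly(A) RNA from whole lungs was made into stranded, paired-end libraries, which a sequencing provider ran and processed with its own pipeline. The submitters' processing notes name STAR, DESeq2 and mm10. The counting tool, its strand setting and the annotation release are not given in the sources used here. The authors deposited raw counts for each Ensembl gene, 1 column per library, with a gene length in bases, and no other columns of sample values were present.

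The software was DESeq2 1.42.0, edgeR 4.0.16 and limma 3.58.1, run under R 4.3.3. A filter on low counts (filterByExpr, minimum count of 10) kept 17138 of 54532 genes, libraries were scaled by TMM in edgeR, and TTI-101-treated and Control groups were compared by robust quasi-likelihood F-tests without covariates, with Benjamini-Hochberg adjustment over the genes tested. CPM and RPKM use the TMM-scaled totals of the genes tested, and log2 CPM a prior count of 2. Log2 ratios are of raw counts. Single values were compared by two-sided exact permutation tests. The 10 genes and all gene lists were chosen with earlier results of these data known. Named from each pathway list were genes with an unadjusted p under 0.05, or otherwise the 2 with the largest log2 fold change among those of at least 1 CPM, together with the constitutive counterparts, the 5 genes most correlated with the 10, and Stat3. One gene that this rule names is not reported here. The tests were checked on simulated counts. No pair of libraries was identical. Promoter windows and motif searches used RefSeq sequences. Gene overlaps used the gene positions deposited with the counts, and transcript windows shared with other genes were searched in GENCODE M21 transcripts. Alternatives were DESeq2, limma-voom, other scaling and filters, a replicate block, Xist as a covariate and each library left out.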

Additional observations from a re-analysis of the deposited data

Results flagged for a closer look

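In 42 groups of 4 libraries examined (levels of genes, ratios and library measures), 2 had 1 library far from the other 3 by Dixon's ratio, where 2.1 would be expected by chance. The 42 groups did not cover every gene named above. H2-Q2, with 20.9 CPM in Control 4 and 9.21 to 11.1 CPM in the other Control libraries, was not among the 2. The total count of Control 1 was 26873509, and the next highest Control library had 18220467 (ratio of the gap to the range 0.83). The share of counts from mitochondrial genes was 5.56% in Control 4 and at most 2.85% in the other Control libraries (ratio 0.867). Neither was a level of one of the 10 genes, although Control 4 was the lowest library for 9 of them.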

How the results depend on the processing

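The median log2 fold change of the 10 genes stayed above 0 under every alternative run, from 0.32 to 0.36 under another test, scaling, filter or covariate and from 0.19 to 0.43 with 1 library left out. The number of the 10 genes with an unadjusted p under 0.05 was 0 by edgeR, DESeq2 and limma-voom, 1 (Tap2) with library totals in place of TMM, and 0 to 2 with 1 library left out. Over all genes, 0 had an adjusted p under 0.05, against 4 by DESeq2, 1 with Xist as a covariate and 0 to 1 with 1 library left out. An unadjusted p under 0.05 was reached by 1132 genes, by 1067 with library totals in place of TMM and by 1849 without the filter. With 1 library left out it was reached by 422 (without TTI-101 3) to 2498 (without TTI-101 2). The cause of these differences was not tested.

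With the replicate number as a block, 4 of the 10 genes had an unadjusted p under 0.05 (Tap1, Tap2, Psmb8 and Psmb9) and the lowest adjusted p was 0.577. In the same edgeR fit, 1298 of the 17138 genes tested had an unadjusted p under 0.05. The labels do not say that the numbers pair the mice. Correlations of same-numbered libraries' deviations from their group means were 0.393, 0.0822, 0.158 and 0.0707, and 4 of 8 libraries correlated best with their own number.

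With 1 library left out, values that crossed 0 were the log2 fold changes of Tapbp (-0.016 to 0.16) and Stat3 (-0.14 to 0.0036) and the differences in log2 ratio of Psmb10 to Psmb7 (-0.023 to 0.33) and Tap1 to Tap2 (-0.033 to 0.22). With 4 libraries per group, the 95% intervals leave room for changes of up to 2.18-fold (B2m).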
